A study of Mus musculus with 4 samples.

Results

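Toll-like receptors, the co-receptor Cd14 and the adaptor Myd88 were examined in myeloid-derived suppressor cells (MDSCs, immature myeloid cells that dampen immune responses) grown in culture from mouse bone marrow. The 10 genes were chosen by symbol (Tlr1, Tlr2, Tlr4, Tlr6, Tlr7, Tlr8, Tlr9, Tlr13, Cd14 and Myd88), out of 32285 genes in the files, and all 10 were present there under a single row each. Bone marrow of WT C57BL/6 mice, 6 to 10 weeks of age, was cultured with IL-6 and GM-CSF at 40 ng/mL each, with 10 µM isoproterenol (ISO, a synthetic catecholamine) or with none (PBS), and live CD11b+ cells were sorted on day 4. The number of mice behind each culture is not given in the sources used here. Single-cell RNA was captured after the cells of the samples had been tagged and pooled, and the samples, called libraries here, are WT+PBS and WT+ISO, 1 library a group. In the sample labels, isoproterenol stands as the treatment of both, in conflict with the sample titles and the study's methods, and groups follow the titles.

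Toll-like receptors recognise conserved molecules of microbes. TLR2 works at the cell surface in pairs with TLR1 or TLR6 and binds bacterial lipopeptides, and TLR4, with its partner MD-2 and with CD14, binds lipopolysaccharide. TLR7, TLR8, TLR9 and TLR13 lie in endosomes and sense nucleic acids. MYD88 is the adaptor that most of these receptors share, and it passes the signal to NF-κB and to the transcription of cytokines such as IL-1β. Neutrophils, monocytes and macrophages are among the cells known to respond through these receptors.

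Cells with 200 genes or more and no more than 10% mitochondrial unique molecular identifiers (UMIs, the count of captured RNA molecules) were kept, 9303 of 9525 in the series, of which WT+PBS held 2210 and WT+ISO 2264. The former had 24393687 and the latter 29400468 UMIs, with medians of 8088.5 and 10252 UMIs a cell. No barcode occurred in more than 1 library, and 95.4% and 97.1% of the tag UMIs of WT+PBS and WT+ISO came from the main tag of each. Levels are UMIs of a gene per 1000000 UMIs of the library or cluster (CPM). Intervals are at 95% throughout, exact Poisson for levels, Clopper-Pearson for shares and conditional binomial for ratios. They speak to counting error and not to differences between cultures or animals, and with 1 library a group no test was made.

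Tlr2 (chr3:83836272-83841824 on GRCm38.p6, as are all positions here) gave the most UMIs of the 10 genes, 2481 with PBS and 2441 with ISO, or 102 and 83.0 CPM. The counting interval of WT+ISO (79.8 to 86.4 CPM) did not reach that of WT+PBS. The genes of its partners lie close to each other on chromosome 5, Tlr1 at chr5:64924680-64933600 and Tlr6 at chr5:64953092-64970942, and both gave few UMIs. Tlr1 had 32 with PBS and 39 with ISO (1.31 and 1.33 CPM), and Tlr6 had 102 and 115 (4.18 and 3.91 CPM). For both genes the intervals of the libraries overlapped.

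Tlr4, the lipopolysaccharide receptor (chr4:66827551-66846581), was at 69.9 CPM in WT+PBS and 55.0 CPM in WT+ISO, again with an interval for WT+ISO (52.4 to 57.7 CPM) that stood apart. Cd14, which hands lipopolysaccharide to TLR4 (chr18:36725064-36726815), was at 99.4 CPM in WT+PBS and 66.8 CPM in WT+ISO, the widest gap among the genes with enough UMIs for a ratio.

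Among the endosomal receptors Tlr13, which senses bacterial ribosomal RNA (chrX:106143275-106160493), gave the most UMIs, 445 with PBS and 480 with ISO (18.2 and 16.3 CPM). Tlr7, a receptor for single-stranded RNA (chrX:167303380-167330574), was at 5.86 and 5.58 CPM in the same order, and its neighbour Tlr8 (chrX:167241123-167264329) was at 2.87 and 2.55 CPM. These 3 genes are X-linked, and the libraries were alike in markers of sex: Xist was at 387 CPM in WT+PBS and 360.1 CPM in WT+ISO, and of the Y-linked genes Ddx3y had 7 UMIs in each, and Uty, Kdm5d and Eif2s3y had 0. Tlr9, the receptor for unmethylated CpG DNA (chr9:106222598-106226876), had 2 UMIs with PBS and 0 with ISO, where 3 UMIs would be 0.102 CPM. No ratio is given for it. The 7 markers of plasmacytoid dendritic cells, a cell type known for TLR9, summed to 41.8 CPM with PBS and 30.2 CPM with ISO, of which Tcf4 gave 960 and 838 UMIs, and the defining marker Siglech had 1 UMI and 0.

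Myd88 (chr9:119335934-119340018) was at 41.4 CPM in WT+PBS and 37.3 CPM in WT+ISO. In terms of cells, 45.8% of the 4474 kept WT cells held a Tlr2 UMI, 42.8% a Cd14 UMI, 41.1% a Tlr4 UMI, 31.1% a Myd88 UMI and 16.6% a Tlr13 UMI. The shares for Tlr7 (5.81%), Tlr6 (4.54%), Tlr8 (2.95%) and Tlr1 (1.54%) were far lower.

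**Figure D1:**
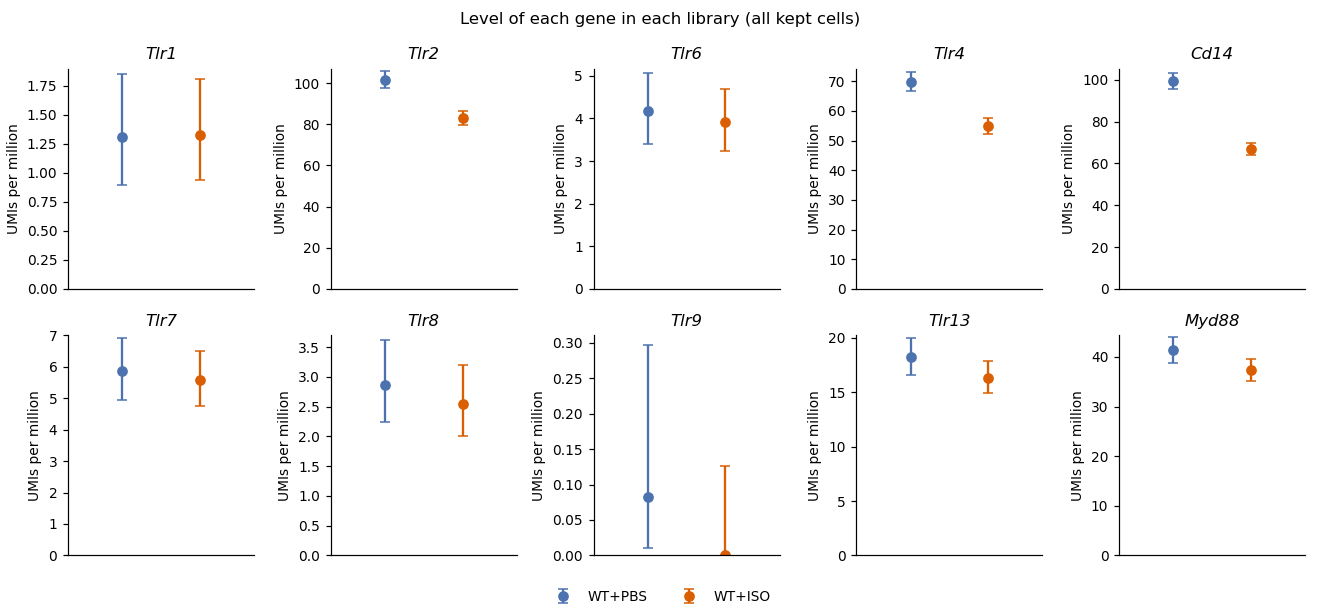
Level of each of the 10 genes (UMIs per 1000000 UMIs, each panel from 0) in WT+PBS and WT+ISO, points with 95% exact Poisson intervals that cover counting error only. WT+ISO is lower for Tlr2 (83.0 against 102), Tlr4 (55.0 against 69.9) and Cd14 (66.8 against 99.4), and Tlr9 is at or near 0 in both.

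In a clustering of all kept cells, made without the genes described here, 7 clusters were found. By markers, 1 was macrophage-like (761 WT cells, led by Mrc1 and C1qb), 1 mature neutrophil-like (974, led by Retnlg, Mmp9 and Ly6g), 2 specific-granule neutrophil-like (494 with Ltf and 521 with Cebpe among their leading genes), 1 azurophil-granule progenitor-like (786, led by Mpo, Ctsg and Elane) and 1 dendritic cell-like (37, led by Ccl5 and Ccr7). The remaining cluster (901 WT cells, led by Gpnmb and Atp6v0d2) met no marker rule and stays unnamed, and its cells had the fewest UMIs, a median of 3238. In a finer division into 13 clusters, named by the same rule, the macrophage-like cluster came apart into 521 WT cells of a monocyte-like cluster (led by Csta3, Spp1 and F13a1), 163 of a macrophage-like cluster (led by C1qb and C1qc) and 77 of others, so that most of its cells were monocyte-like there. It is therefore called the Mrc1 cluster below. The Gpnmb cluster also came apart, into 359 WT cells of a finer cluster led by Gpnmb and 448 of one led by Gstt1 and Gm6209. Both stay unnamed, and 93 more fell in a finer mature neutrophil-like cluster.

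Tlr2 was high in 3 clusters and low in the others. It was at 189 CPM in WT+PBS and 171 CPM in WT+ISO in the Gpnmb cluster, 164 and 184 CPM in the Mrc1 cluster and 173 and 159.9 CPM in the mature neutrophil-like cluster. These 3 overlapped, and which was highest differed between the libraries. The Ltf specific-granule cluster (50.7 and 38.9 CPM) and the azurophil-granule cluster (44.9 and 38.99 CPM) formed a lower pair, and the Cebpe specific-granule cluster was lowest, at 11.6 and 17.2 CPM.

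Tlr4 took nearly the same order, but its highest cluster was the Gpnmb cluster in both libraries, at 166 CPM in WT+PBS and 159.8 CPM in WT+ISO. The Mrc1 (102 and 106 CPM) and mature neutrophil-like (113 and 95.4 CPM) clusters overlapped each other below it. The Ltf cluster was at 40.5 and 46.5 CPM, and the Cebpe (22.2 and 24.01 CPM) and azurophil-granule (24.3 and 21.3 CPM) clusters were lowest and not apart. In the finer division, over both libraries together, Tlr4 was highest in the cluster led by Gstt1, at 203 CPM. The finer mature neutrophil-like cluster with Cxcr2 was at 175 CPM, the finer macrophage-like one at 143 CPM and the finer one led by Gpnmb at 123 CPM.

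Cd14 and Tlr13 were lower in the Mrc1 cluster than in the other high clusters. Cd14 was at 345 CPM in WT+PBS and 283 CPM in WT+ISO in the Gpnmb cluster, 212 and 159 CPM in the mature neutrophil-like, 119 and 113 CPM in the Mrc1, 56.7 and 51.8 CPM in the Ltf, 24.9 and 14.8 CPM in the Cebpe and 19.9 and 16.8 CPM in the azurophil-granule cluster. Between the libraries, neighbours in this order overlapped for the last pair alone. Tlr13 was at 50.03 and 62.5 CPM in the Gpnmb cluster, 54.6 and 46.7 CPM in the mature neutrophil-like and 22.1 and 27.5 CPM in the Mrc1, and between 2.05 and 3.60 CPM in the Cebpe and azurophil-granule clusters. For both genes the Mrc1 cluster as a whole stood below both others in each library. Within it, Cd14 was at 112 and 106 CPM in the finer monocyte-like cluster but at 163 and 238 CPM in the finer macrophage-like one, and Tlr13 was at 22.4 and 25.5 CPM in the former and 24.8 and 60.04 CPM in the latter. Cells of this finer macrophage-like cluster are called C1q cells here, after its leading genes over all 4 libraries. Those of WT+ISO thus stood above the coarse mature neutrophil-like cluster of that library for both genes, with Tlr13 on 35 UMIs. Among finer mature neutrophil-like clusters of WT+ISO, the one with Ceacam10 was lower than the C1q cells (113 CPM for Cd14 and 35.5 CPM for Tlr13). The one with Cxcr2 was higher (250 and 64.3 CPM). Over both libraries together, the finer cluster led by Gpnmb was at 268 CPM for Cd14 and 45.6 CPM for Tlr13. That lay below the finer cluster led by Gstt1 (302 and 71.6 CPM) and the Cxcr2 one (313 and 64.1 CPM).

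The Tlr8 level was highest in the Mrc1 cluster, at 4.97 CPM in WT+PBS and 6.25 CPM in WT+ISO, against 3.24 and 4.09 CPM in the mature neutrophil-like, on 6 and 14 UMIs. The counting intervals of these clusters overlapped, so that their order is not resolved. Tlr7 was spread over the Gpnmb (16.1 and 9.24 CPM), mature neutrophil-like (9.19 and 12.5 CPM), Mrc1 (7.58 and 10.5 CPM) and Ltf (8.09 and 7.60 CPM) clusters, and was at 1.21 and 1.56 CPM in the azurophil-granule cluster. Tlr6 was highest in the Gpnmb cluster in both libraries (7.83 and 14.2 CPM), on 18 and 20 UMIs. Tlr1 ranged from 0.630 CPM in the Cebpe to 3.22 CPM in the mature neutrophil-like cluster over both libraries together. Of the 2 Tlr9 UMIs, 1 lay in a cell of the dendritic cell-like cluster and 1 in a cell of the Mrc1 cluster.

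Myd88 varied least. Its levels over both libraries together were 55.6 CPM in the Mrc1, 41.3 CPM in the Gpnmb, 36.9 CPM in the azurophil-granule, 35.4 CPM in the Ltf, 34.7 CPM in the mature neutrophil-like and 22.1 CPM in the Cebpe cluster, so that the highest was 2.52 times the lowest, against 7.28 for Tlr4, 12.02 for Tlr2, 17.9 for Cd14 and 22.6 for Tlr13. The dendritic cell-like cluster held few receptor UMIs, 12 of Tlr2, 15 of Tlr4 and 6 of Cd14, and 0 of Tlr7 and Tlr8. With 0 of 37 cells, a share of up to 9.49% of cells with a Tlr7 or Tlr8 UMI remains within the Clopper-Pearson interval.

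**Figure D2:**
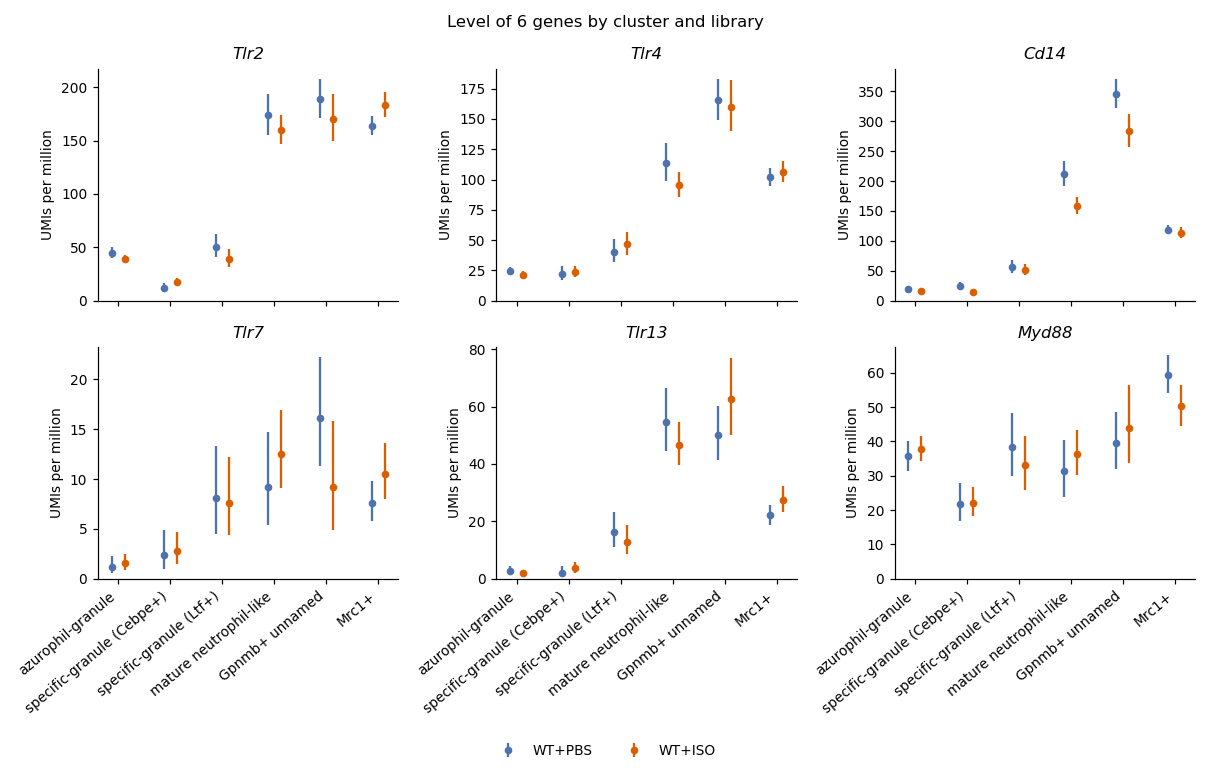
Level (UMIs per 1000000 UMIs, from 0) of Tlr2, Tlr4, Cd14, Tlr7, Tlr13 and Myd88 in the 6 larger clusters, 1 point per library with 95% exact Poisson intervals for counting error. Cd14 is highest in the Gpnmb cluster of both libraries (345 in WT+PBS, 283 in WT+ISO), and Myd88 differs least between clusters on this scale.

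These levels are relative to all UMIs of the cells, and the clusters differ in depth, with median UMIs a cell from 3238 in the Gpnmb cluster to 23535.5 in the azurophil-granule cluster. Counted per cell, the Mrc1 cluster was highest of the 6 larger clusters for each gene, Tlr9 on a single UMI. It held 2.999 Tlr2 UMIs a cell against 0.748 in the Gpnmb and 0.892 in the mature neutrophil-like cluster, and 2.03 Cd14 UMIs a cell against 1.32 and 0.962. Myd88 ran from 0.170 UMIs a cell in the Gpnmb to 0.968 in the Mrc1 cluster. Tlr4 ran from 0.355 in the Cebpe to 1.80 in the Mrc1 cluster, so that Myd88 did not vary least on this scale. When each cell was thinned to 2000 UMIs, leaving out 181 shallower cells of WT+PBS and 127 of WT+ISO, 40.1% of Gpnmb-cluster cells and 27.1% of mature neutrophil-like cells held a Cd14 UMI (52.8% and 50.8% before), against 18.97% of Mrc1-cluster cells (64.8% before) and 2.11% of Cebpe-cluster cells (19.2% before). The Cebpe cluster was the lowest of the 6 for this share, with a median of 14368 UMIs a cell. How many of its Cd14 UMIs came from free RNA was not tested. For Tlr2 the shares were close to each other, with 28.7%, 26.1% and 27.4% of thinned cells in the Gpnmb, mature neutrophil-like and Mrc1 clusters, and 2.69% in the Cebpe cluster (40.2%, 47.95%, 81.9% and 17.9% before). The cells left out by thinning were mostly of the Gpnmb cluster. Its shares after thinning are thus of its deeper cells, while the shares before are of all its cells.

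The 13 finer clusters resolved the neutrophil lineage into 5 named steps, from azurophil-granule progenitor-like cells (331 WT cells, Mpo and Elane) through specific-granule cells with Cebpe (469) and with Ltf (397) to mature neutrophil-like cells with Ceacam10 (431) and with Cxcr2 (519). Of the Cxcr2 cells, 82.1% belonged to the coarse mature neutrophil-like cluster, and 93 cells to the Gpnmb cluster. Azurophil-granule, specific-granule and mature cells were placed in the textbook order of granule formation in the marrow. The order within the specific-granule and mature pairs was chosen, on cells of a single day, and no time course was measured. Cd14 was at 15.7, 20.6, 55.5, 120.2 and 313 CPM along the 5 steps, and Tlr2 at 11.3, 17.4, 29.8, 92.7 and 241 CPM. At the end Cd14 was thus 19.9 times and Tlr2 21.4 times as high as at the start, and the end was the higher in both libraries. Tlr13 went from 0.841 through 3.64, 10.1 and 38.5 to 64.1 CPM, 76.3 times, on 7 UMIs at the start. Tlr4 was at 19.6, 23.8, 35.4, 55.4 and 175 CPM, 8.93 times as high at the end, and Tlr7 went from 0.240 CPM, on 2 UMIs, to 14.8 CPM.

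Myd88 was at 25.3, 22.5, 34.3, 35.1 and 36.1 CPM over the same steps, 1.43 times as high at the end. Total RNA runs the other way, since the median number of UMIs a cell was 24444 at the first step and 4627 at the last. Per cell, Cd14 still stood 3.92 times, Tlr2 4.21 times and Tlr13 15.03 times as high in the last step as in the first, Tlr4 1.76 times, and Myd88 was at 0.637 UMIs a cell in the first and 0.179 in the last, a ratio of 0.281. The direction for Myd88 hence depends on the scale. Away from this series, 436 WT cells led by Kcnq5, Muc13 and Matn2, of which 83.7% belonged to the azurophil-granule cluster, held Tlr2 at 78.6 CPM and Myd88 at 51.6 CPM, against 11.3 and 25.3 CPM in the Mpo and Elane cells, so that the coarse cluster joins cells of unlike Tlr2 level.

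**Figure D3:**
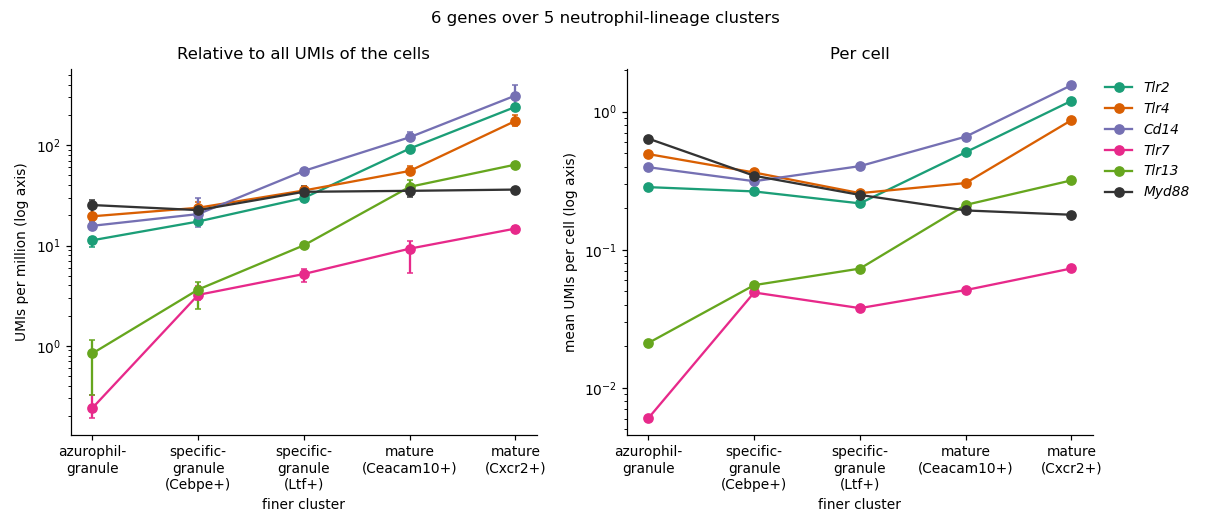
Tlr2, Tlr4, Cd14, Tlr7, Tlr13 and Myd88 over 5 finer neutrophil-lineage clusters in WT cells, as UMIs per 1000000 UMIs (left, log axis, bars from the lower to the higher library) and as mean UMIs per cell (right, log axis). Cd14 goes from 15.7 to 313 per 1000000, and Myd88 from 25.3 to 36.1 per 1000000 but from 0.637 to 0.179 per cell.

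Sequence upstream of the start is shown for genes with a steep gradient in CPM over these steps (Tlr2 and Tlr13) and for Myd88. The latter was nearly flat in CPM but lower per cell at the end. Sequences are on GRCm38.p6, from a set of promoter windows that held a start site for 7 of the 10 genes. Tlr4, Tlr7 and Cd14 had none in this set, although all 10 genes have RefSeq positions. Capitals mark 3 motifs searched on both strands: GAGGAAG, a core that ETS factors such as PU.1 bind, GGAATTCC, a palindrome within NF-κB sites, and TGACGT, a CREB half-site. Of 32851 promoter windows of 250 bases, 10.6% held the first, 0.420% the second and 6.47% the third. The Tlr2 window lies at chr3:83841761-83841790 (minus strand), bases -182 to -153 from the start used, which is inside the gene's annotated span because another transcript begins further upstream. The Tlr13 window is chrX:106143025-106143274 (plus strand) and that of Myd88 is chr9:119340019-119340268 (minus strand), each the 250 bases before the start.
Tlr2: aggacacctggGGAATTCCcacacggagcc
Tlr13: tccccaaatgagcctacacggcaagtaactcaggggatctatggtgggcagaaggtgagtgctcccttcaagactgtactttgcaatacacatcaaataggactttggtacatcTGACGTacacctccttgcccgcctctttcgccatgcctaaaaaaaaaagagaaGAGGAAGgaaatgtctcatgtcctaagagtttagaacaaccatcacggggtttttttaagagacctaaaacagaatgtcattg
Myd88: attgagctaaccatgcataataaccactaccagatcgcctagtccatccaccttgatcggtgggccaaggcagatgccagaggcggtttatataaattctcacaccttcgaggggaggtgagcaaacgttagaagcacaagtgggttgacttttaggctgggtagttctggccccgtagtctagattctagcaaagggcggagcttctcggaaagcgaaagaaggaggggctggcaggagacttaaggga
Tlr2 held the palindrome at base -171, Tlr13 the CREB half-site at -136 and the ETS core at -83, and the Myd88 window held none of the 3. Of the genes not shown, Tlr1 held the ETS core at 1 of its 2 start sites, and Tlr9, with 2 UMIs in all, held it too. Tlr6 went from 1.92 to 9.71 CPM over the 5 steps and Tlr8 from 0 to 4.66 CPM, and their windows held none of the 3 motifs. Per cell, Tlr6 did not rise, at 0.0483 UMIs in the first step and 0.0482 in the last. Matches thus did not follow the gradient in CPM over the 7 genes. A match is a description of letters, and no binding was measured.

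With ISO in WT cells, all 8 genes with at least 100 UMIs in the pair of libraries were lower, by log2 ratios from -0.57 to -0.07 with a median of -0.16, against a median of -0.02 over the 10771 genes tested, of which 53.0% were below 0. Cd14 was furthest down, at -0.57 (-0.66 to -0.49), or 1.49-fold, just short of the 1.5-fold at which a difference was called. Tlr4 was at -0.34 (-0.44 to -0.25), Tlr2 at -0.29 (-0.37 to -0.21) and Myd88 at -0.15 (-0.27 to -0.02). For Tlr13 (-0.16), Tlr6 (-0.10), Tlr7 (-0.07) and Tlr8 (-0.17) the counting interval held 0. None of the 8 was called in either direction, where 1.00% of all genes were called higher and 5.50% lower.

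The make-up of the WT libraries differed at the same time. WT+ISO held fewer cells of the clusters in which most of these genes were high, 13.4% against 20.7% in the Mrc1 and 14.2% against 26.2% in the Gpnmb cluster, and more of those in which they were low, 20.6% against 14.5% in the azurophil-granule and 14.5% against 8.69% in the Cebpe cluster. Mature neutrophil-like cells, in which they were high, made up 25.4% against 18.0%. The 9 macrophage markers summed to 92.9 CPM in WT+ISO and 205 CPM in WT+PBS, and the 6 azurophil-granule markers to 5513 and 4223 CPM. The 13 dendritic cell markers summed to 364 against 1065 CPM and the 6 eosinophil markers to 3.13 against 56.6 CPM. Most UMIs of the dendritic cell sum were of Cd74, 7003 in WT+ISO against 17593 in WT+PBS. Ccr7, Fscn1 and Ccl22 had 192, 114 and 278 UMIs in WT+ISO against 330, 166 and 559. Flt3, Clec9a and Xcr1 were few and not lower, at 15, 11 and 4 UMIs against 10, 8 and 0. The part of these other cells in the ratios was not tested beyond the weighting given next.

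The 7 clusters were then held at the same weights in each library, namely their shares of UMIs over all 4 libraries of the series. The ratio of Cd14 was -0.22, that of Tlr4 -0.03, that of Tlr2 0.02, that of Myd88 -0.05 and that of Tlr13 0.13. The median of the 8 was 0.05, against 0.02 over all genes tested, and 3 of the 8 lay below 0. With the 13 finer clusters held in the same way, Cd14 was at -0.16 and Tlr2 at 0.06. At both sets of weights Tlr2 was near 0, and no interval was made for it there. The lower level of Tlr2 over all cells was thus not kept at these weights, and Cd14 kept its direction at a smaller size.

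**Figure D4:**
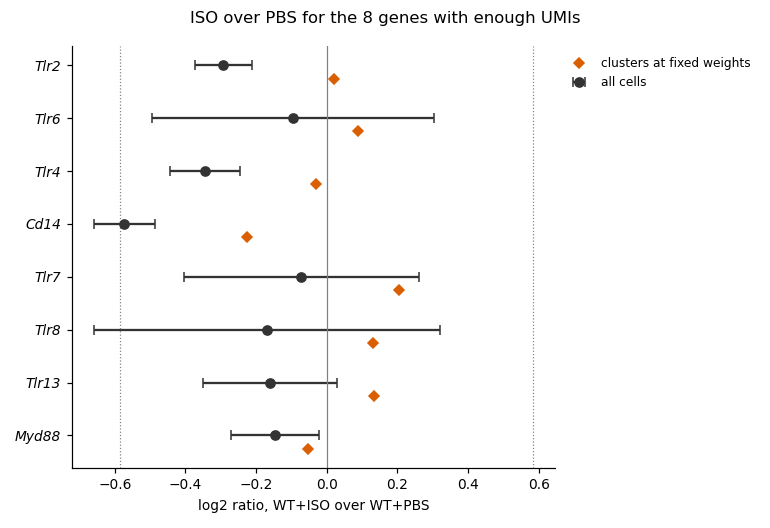
Log2 ratio of WT+ISO over WT+PBS for the 8 genes with at least 100 UMIs in the pair. Black points are sums over all cells with 95% counting intervals, orange diamonds hold the clusters at fixed weights, and dotted lines mark 1.5-fold. Cd14 is at -0.57 over all cells and -0.22 at fixed weights.

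Within clusters, the Cd14 level of WT+ISO lay below that of WT+PBS in each of 6 clusters with at least 20 UMIs, and the counting interval left out 0 in 3 of them. In the mature neutrophil-like cluster it was at 159 against 212 CPM, a log2 ratio of -0.42 (-0.61 to -0.23). In the Gpnmb cluster it was at 283 against 345 CPM, -0.29 (-0.46 to -0.11). In the Cebpe cluster, where it was low and the part of free RNA was not tested, it was at 14.8 against 24.9 CPM, -0.75 (-1.24 to -0.26). The Mrc1 cluster showed the least, with 113 against 119 CPM and -0.06 (-0.21 to 0.08).

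The 13 finer clusters gave a mixed picture. The ratio of Cd14 lay below 0 in 9 of the 12 with enough UMIs and above 0 in 3, and its interval was below 0 in 3 and above 0 in 1. In the Cxcr2 mature cells, where Cd14 was highest, it was at 250 CPM in WT+ISO and 397 CPM in WT+PBS (-0.67, -0.87 to -0.47). Of these cells, 18 in WT+ISO and 75 in WT+PBS came from the coarse Gpnmb cluster. Another 242 and 184 came from the coarse mature neutrophil-like cluster. The part of this unlike make-up in the ratio was not tested. In the macrophage-like cells with C1qb and C1qc, Cd14 was higher with ISO, at 238 against 163 CPM (0.55, 0.24 to 0.85), on 139 and 276 UMIs from 44 and 119 cells. In the monocyte-like cells it was at 106 against 112 CPM (-0.08, -0.26 to 0.096), so that the small ratio of the Mrc1 cluster joined cells with unlike ratios. The same C1q cells were higher with ISO in Tlr2 (197 against 129 CPM, ratio 0.61, 0.28 to 0.95) and Tlr13 (60.04 against 24.8 CPM, ratio 1.27, 0.58 to 1.96). They were not higher in all genes. For Tlr4 (-0.10, -0.49 to 0.27), Myd88 (-0.22, -0.91 to 0.42) and Tlr7 (0.73, -0.73 to 2.08) the interval held 0 in these cells. The whole WT+ISO library held 44 C1qb and 12 C1qc UMIs, against 298 and 97 in WT+PBS. Whether the C1q cells of the 2 libraries are alike in C1q content was not tested.

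In the coarser clusters, Tlr2 and Tlr4 were not below 0 throughout. Tlr2 was higher with ISO in the Mrc1 cluster, at 184 against 164 CPM (0.16, 0.04 to 0.28), and its intervals held 0 in the 5 other clusters, with ratios of -0.38 to 0.57. Tlr4 was at -0.25 (-0.50 to 0.01) in the mature neutrophil-like cluster and between -0.19 and 0.20 elsewhere, all with intervals that held 0. Myd88 was lower in the Mrc1 cluster alone by its interval (-0.24, -0.46 to -0.02). The 6 ratios of Tlr13 ran from -0.38 to 0.82, with intervals that all held 0, and 2 of the 6 of Tlr7 lay below 0, on 13 to 59 UMIs in WT+ISO. Tlr6 was higher with ISO in the mature neutrophil-like cluster, at 9.92 against 4.32 CPM (1.20, 0.060 to 2.52), on 34 and 8 UMIs. Finer clusters were mixed for Tlr2 and Tlr4, each below 0 in 6 of 12 and above 0 in 6. By its interval, Tlr2 was lower in the finer cluster led by Gstt1 (-0.44, -0.82 to -0.07) and in the Kcnq5 cells (-0.23, -0.44 to -0.03). It was higher in the C1q cells alone. Tlr4 was lower in the Cxcr2 cells (-0.36, -0.63 to -0.08) and higher in the monocyte-like cells (0.22, 0.04 to 0.41). Myd88, Tlr6 and Tlr13 also had intervals on both sides of 0.

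**Figure D5:**
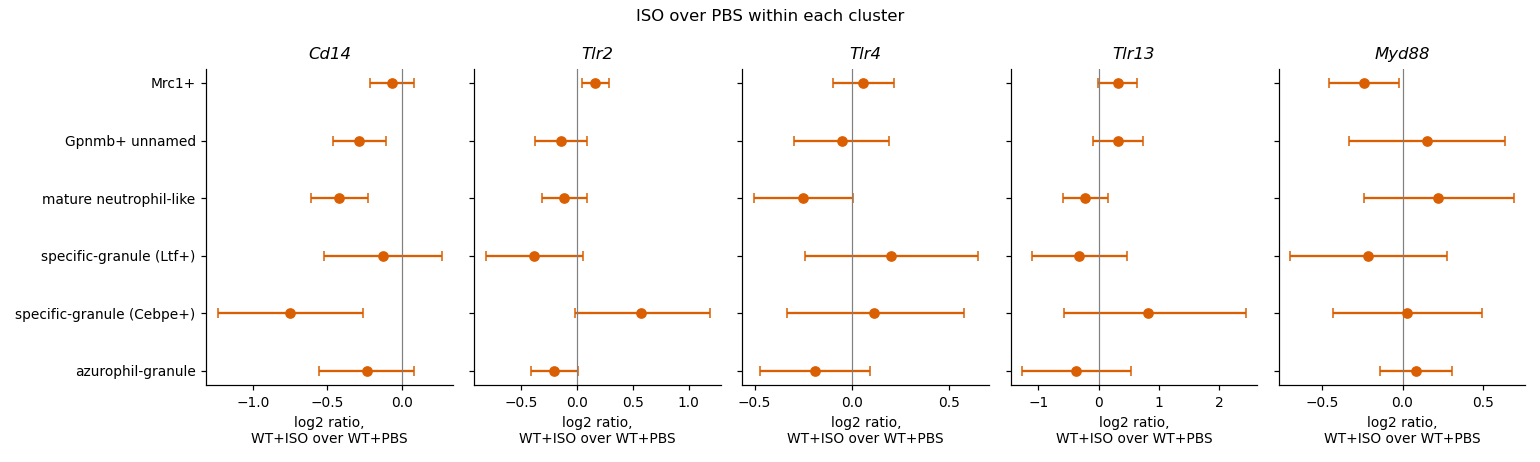
Log2 ratio of WT+ISO over WT+PBS within each of the 6 larger clusters for Cd14, Tlr2, Tlr4, Tlr13 and Myd88, with 95% counting intervals. Cd14 lies below 0 in all 6, by -0.42 in the mature neutrophil-like and -0.29 in the Gpnmb cluster.

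Of 52 other genes of the pathway, listed by role, 44 had enough UMIs, and 6 were called lower with ISO (13.6%) and 0 higher, where 5.50% of all genes were called lower and 1.00% higher. Their median was -0.10, against -0.02 over all genes. The 6 were 2 of 5 targets, 1 of 7 inhibitors, 2 of 5 co-receptors and 1 of 5 trafficking genes. Il1b, the cytokine IL-1β and a target of the pathway, was at 137 CPM in WT+PBS and 47.1 CPM in WT+ISO. Its ratio was -1.54 (-1.64 to -1.45), stayed at -1.03 at fixed weights and lay below 0 in 7 of 7 clusters, with the interval below 0 in 5. The gap in CPM was widest in the Gpnmb cluster, where Il1b was at 490 CPM in WT+PBS and 193 CPM in WT+ISO (-1.34, -1.54 to -1.15). Tnfaip3, which encodes the inhibitor A20, was at 20.3 CPM in WT+PBS and 13.5 CPM in WT+ISO (-0.59, -0.79 to -0.40), and at -0.34 at fixed weights. Its ratio lay below 0 in 7 of 7 clusters, but its interval did so in 2 alone, and in the Gpnmb cluster the ratio was -0.01. Ptgs2, the inducible cyclooxygenase and also a target, was at -0.91 on 68 and 106 UMIs, and at -0.28 at fixed weights. The other targets were not called. The cytokine gene Tnf was at 25.3 CPM in WT+PBS and 25.1 CPM in WT+ISO (-0.01, -0.16 to 0.15). The chemokine gene Cxcl2 was at -0.35 (-0.40 to -0.31), or 0.04 at fixed weights, and the chemokine gene Cxcl10 at 0.40 (-0.08 to 0.90). A single cell held 40 of the 94 Cxcl10 UMIs of WT+ISO, which the counting interval does not take into account.

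Of the 5 co-receptors, Cd180 and its partner Ly86, a receptor pair related to TLR4 and MD-2, were called lower with ISO, at -1.06 (-1.42 to -0.71) and -1.23 (-1.61 to -0.85), and at -0.42 and -0.67 at fixed weights. Within clusters, Cd180 lay below 0 in 3 of 3, with the interval below 0 in 0. Ly86 was lower in the Mrc1 cluster (-1.02, -1.52 to -0.54). It was higher with ISO in the dendritic cell-like cluster (0.94, 0.008 to 1.88), on 23 and 20 UMIs. Ly96, which encodes MD-2, was at 10.7 CPM in WT+PBS and 9.32 CPM in WT+ISO (-0.19, -0.44 to 0.06). Lbp, the lipopolysaccharide-binding protein, was at 0.34 (0.21 to 0.47) over all cells and 0.03 at fixed weights, and Cd36 at 0.01 (-0.38 to 0.39), but 0.74 at fixed weights. Among the 5 trafficking genes, Slc15a3, a lysosomal peptide transporter, was called lower at -0.78 (-0.91 to -0.65), or -0.33 at fixed weights, while Unc93b1, which escorts the endosomal receptors, was at 0.05 (-0.03 to 0.13). None of the 3 adaptors, 13 kinases and ligases or 6 transcription factors was called. Irf7, a transcription factor of interferon genes, was at 0.51 (0.22 to 0.81). Its ratio was above 0 in 6 of 6 clusters, with the interval above 0 in 1. Tlr3, Tlr5, Tlr11 and Tlr12, the other receptors, had between 0 and 12 UMIs a library.

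Over 13 sums of cells by library and cluster (at least 20 cells each), the genes whose log2 level was most like that of Cd14 were Cd44, Susd6 and E230016K23Rik (Pearson r of 0.991, 0.989 and 0.987). For Tlr2 they were Tpd52, Il1rap and Cxcl2 (0.9895, 0.974 and 0.973), for Tlr4 Msn, Sdcbp and Slc37a3 (0.987, 0.982 and 0.982), and for Tlr13 Cd300ld, Fbxl5 and Ccl6 (0.989, 0.985 and 0.985). Myd88 had weaker matches, Pycard, Smim15 and Adipor2 (0.949, 0.944 and 0.935). Among the genes themselves Tlr4 and Tlr13 were most alike (0.964) and Tlr13 and Myd88 least (0.452). The sums share libraries, clusters and depth, so that these values describe the pattern over clusters and are not independent points.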

How the data were processed

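Libraries were made on the 10X Genomics platform from tagged, pooled live CD11b+ cells. The authors deposited unnormalized UMI counts per gene and cell. The series holds 4 libraries, and all were filtered and clustered together. Values come from the 2 WT libraries alone, except that the fixed weights and the naming of clusters rest on all 4. Results of the other 2 are not reported here. The labels' processing notes name Cell Ranger 6.0.0, Seurat and mm10, while the file header gives Cell Ranger 7.0.0. Whether introns were counted is not given in the sources used here. Clusters were found with scanpy 1.11.5 and leidenalg 0.10.2 (counts scaled to 10000 a cell, log, 2000 variable genes without the genes and pathway lists described here, 30 components, 15 neighbours, resolution 0.4, seed 0). A cluster was named where at least 3 markers of a class were in 10% of its cells, their mean log2 ratio reached 1, and 1 or more stood among its 10 leading genes. No doublets were removed. Ratios needed 100 UMIs over both libraries and were called at 1.5-fold. Fixed weights are each cluster's share of all kept UMIs over the 4 libraries, and weights from the WT libraries alone were not tried. Ratios within clusters needed 20 UMIs. Ratios and intervals were run on simulated Poisson counts, the model that the intervals assume. The simulation held no clumping of UMIs in single cells, so that it cannot tell how the intervals do where UMIs clump. Members and lists were chosen with earlier results of these data known. Named are all members, other Toll-like receptors, co-receptors and pathway genes called with ISO. By likeness, the 3 genes of highest r of log2(CPM + 5) among those with 500 UMIs are also named. Unc93b1, Irf7, Tnf, Cxcl2, Cxcl10, Il6, Il12b and Ifnb1 were chosen after their values were seen. Likewise the Kcnq5 and C1q cells, and ratios within the finer clusters, were chosen after their values were seen. In WT+PBS and WT+ISO, the summed markers of mature neutrophils were at 1515 and 1694 CPM, of specific-granule neutrophils at 20904 and 27851, of monocytes at 1534 and 1504, of plasmacytoid dendritic cells at 41.8 and 30.2, of basophils or mast cells at 18.3 and 12.1, of B cells at 4.35 and 6.70, of T or NK cells at 1.93 and 1.16, of erythroid cells at 0.451 and 0.306 and of megakaryocytes at 9.43 and 12.4, and their part in the results was not tested. The monocyte sum was mostly Ly6c2, which was higher with ISO (36838 UMIs against 24799 with PBS). All other monocyte markers had fewer UMIs with ISO, such as F13a1 (3030 against 6454), Ccr2 (2084 against 3179) and Csf1r (1378 against 1937). The near-equal sums therefore do not show an equal monocyte content. Of the mature neutrophil markers, Il1r2 (11070 against 13854) and Csf3r (1392 against 1667) had fewer UMIs with ISO. The others had more, with the widest gap for Mmp8 (22147 against 10846). The megakaryocyte sum was mostly Pf4 (351 against 198), a leading gene of the Mrc1 cluster, while Itga2b had fewer UMIs with ISO (10 against 27).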

Additional observations from a re-analysis of the deposited data

How the results depend on the processing

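No paired analysis was possible because the groups hold single libraries and were compared without a test. Of 28 values for the comparison and for the levels by cluster under another setting, 23 stayed within counting error or within 1.5 times the count. With the clusters at fixed weights the median log2 ratio with ISO was 0.054, and with 13 finer clusters, a setting chosen after seeing the data, 0.093. Of 64 ratios of single genes under another setting, 12 changed sign. At fixed weights and with the finer clusters these were Tlr2, Tlr6, Tlr7, Tlr8 and Tlr13, and with equal weight per cell Tlr6 (0.42) and Tlr8. The counting interval of the main ratio left out 0 for Tlr2 alone, which went to 0.020 and 0.058. The median shift of all genes under the 2 other scalings was 0.048 and 0.042. The highest cluster held mostly the same cells as in the main clustering for 5 of 5 genes with resolution 0.2 and with 4000 variable genes. It did so for 4 of 5 with resolution 0.6, for 3 of 5 with resolution 1.0 and for 2 of 5 with 30 neighbours. Without the 5% of cells with most UMIs it did so for 1 of 5. There, mature neutrophil-like cells led for Tlr2, Tlr4, Tlr13 and Cd14 in place of the Gpnmb cluster. The cause was not tested. Tlr1 and Tlr9, under 100 UMIs, limit any ratio, and Tlr6, Tlr7 and Tlr8 have wide counting intervals.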
